A study of Mus musculus with 30 samples.

Results

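The genes described here are the targets of the hypoxia-inducible factors (HIF) and the enzymes of glycolysis in the retina of mouse pups with oxygen-induced retinopathy (OIR). The set holds 44 genes: 4 transporters of glucose and lactate, 19 enzymes of glycolysis and pyruvate use, 17 other HIF targets, and 4 genes of the HIF system itself (Hif1a, Epas1, Arnt and Vhl). A gene was measured when the array platform gave a probe set its symbol and no other, and where a gene had several, the one that read highest on average across the arrays stood for it. By that rule 40 of the 44 were measured, among 12393 genes in all: 4 of 4 transporters, 16 of 19 enzymes, 16 of 17 other targets and 4 of 4 HIF genes. Gpi1 and Eno1 had no probe set under their symbols, Bnip3l had only probe sets shared with other symbols, and Gapdh had shared and array control probe sets, so these 4 have no value below.

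The 30 arrays held 1 retina each, from 10 groups of 3 pups. One group stayed in room air (normoxia), and the pups of the other 9 groups breathed 75% oxygen for 5 days from postnatal day 7 (P7) and then returned to room air. One of these 9 has no injection in its label and is called OIR. The remaining 8 groups received an intravitreal injection, either at P5, before the oxygen, or at P12, on return to room air. At each day 1 group received saline, 1 received 100000 human endothelial colony forming cells (ECFC, cultured vessel progenitors), 1 received 10000 human CD34+ cells (blood stem and progenitor cells), and 1 received 110000 cells of both kinds. The array carries mouse probe sets. Whether RNA of the injected human cells added to their signal was not tested. The labels do not say whether the 3 pups of a group came from separate litters, so p-values measure the spread between these retinas. All labels give P17 as the stage, but the study's design text pairs injection at P5 with collection at P12. If that text holds, every difference between a P5 group and normoxia, OIR or a P12 group is also a difference between collection days, and the 2 cannot be told apart.

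HIF is a pair of proteins, an oxygen-sensitive alpha subunit (encoded by Hif1a or Epas1) and a stable partner (Arnt). In oxygen, prolyl hydroxylases of the Egln family mark the alpha subunit, and the Vhl protein then has it destroyed; in hypoxia it persists, enters the nucleus and binds the DNA letters ACGTG or GCGTG near its target genes. Known targets raise glucose uptake and glycolysis, send lactate out of the cell, hold pyruvate back from mitochondria, and change matrix formation, pH control and mitochondrial turnover. The retina turns much of its glucose into lactate even when oxygen is present, chiefly in photoreceptors, and Muller glia and vessel cells carry HIF responses of their own. In the OIR model, high oxygen stops the growth of capillaries, and the retina left without vessels becomes hypoxic in room air.

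Because these genes are grouped by a shared regulator, their promoters are shown first for the letters it reads. RefSeq windows of 300 bases on GRCm38.p6, 250 before to 50 after a gene's start, were present for 38 of the 44 genes. The 6 genes Slc2a3, Bnip3l, Ndrg1, Plod2, Bhlhe40 and Epas1 had no entry. ACGTG on either strand occurred in 25 of the 38 (65.8%), against 21.8% of 27025 genes with an entry and 26.9% of 9887 such genes measured on the array. ACGTG or GCGTG occurred in 86.8% of the 38, in 46.7% of all genes with an entry and in 61.6% of those on the array. Both motifs contain CG, and the median number of CG in a window was 25 for the members, 19 for genes on the array and 8 for all genes. Below are the windows of the 4 genes with an entry that rose most in OIR and of the 2 genes without a called change that had the highest array signal. The windows are given 5′ to 3′ on the strand of the gene, with each match of either motif in capitals on both strands; CACGC is GCGTG and CACGT is ACGTG read on the other strand, and CACGTG holds ACGTG on both. For genes with several windows, the one with most matches is shown (Aldoa has 3, Ldha 2).
Stc2: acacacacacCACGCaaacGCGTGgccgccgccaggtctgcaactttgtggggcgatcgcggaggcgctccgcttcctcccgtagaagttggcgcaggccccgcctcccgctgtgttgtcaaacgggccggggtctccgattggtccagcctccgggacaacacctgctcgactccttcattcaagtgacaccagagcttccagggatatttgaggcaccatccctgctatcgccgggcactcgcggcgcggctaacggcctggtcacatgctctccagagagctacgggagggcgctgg
Egln3: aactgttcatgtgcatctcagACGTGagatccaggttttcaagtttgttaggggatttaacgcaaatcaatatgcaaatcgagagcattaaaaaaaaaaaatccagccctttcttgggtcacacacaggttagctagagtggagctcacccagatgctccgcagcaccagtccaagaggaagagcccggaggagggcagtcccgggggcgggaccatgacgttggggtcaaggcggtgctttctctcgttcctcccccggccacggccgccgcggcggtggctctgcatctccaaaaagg
Slc16a3: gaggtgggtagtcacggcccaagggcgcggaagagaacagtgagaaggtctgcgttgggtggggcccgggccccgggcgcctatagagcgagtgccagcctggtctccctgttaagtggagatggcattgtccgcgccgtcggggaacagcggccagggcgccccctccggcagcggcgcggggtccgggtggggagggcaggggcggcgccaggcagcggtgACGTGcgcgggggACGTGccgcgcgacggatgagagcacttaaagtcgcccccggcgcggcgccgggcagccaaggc
P4ha2: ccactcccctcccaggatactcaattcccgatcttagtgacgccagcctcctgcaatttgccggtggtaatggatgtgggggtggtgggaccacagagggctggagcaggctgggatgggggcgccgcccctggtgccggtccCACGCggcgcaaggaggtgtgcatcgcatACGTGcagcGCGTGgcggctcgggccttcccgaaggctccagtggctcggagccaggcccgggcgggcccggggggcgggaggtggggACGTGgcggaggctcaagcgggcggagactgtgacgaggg
Aldoa: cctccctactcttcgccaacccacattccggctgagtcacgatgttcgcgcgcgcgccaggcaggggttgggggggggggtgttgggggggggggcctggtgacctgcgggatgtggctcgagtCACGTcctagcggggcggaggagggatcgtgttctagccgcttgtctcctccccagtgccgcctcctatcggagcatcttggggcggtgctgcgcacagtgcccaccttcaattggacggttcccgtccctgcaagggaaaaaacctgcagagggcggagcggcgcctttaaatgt
Ldha: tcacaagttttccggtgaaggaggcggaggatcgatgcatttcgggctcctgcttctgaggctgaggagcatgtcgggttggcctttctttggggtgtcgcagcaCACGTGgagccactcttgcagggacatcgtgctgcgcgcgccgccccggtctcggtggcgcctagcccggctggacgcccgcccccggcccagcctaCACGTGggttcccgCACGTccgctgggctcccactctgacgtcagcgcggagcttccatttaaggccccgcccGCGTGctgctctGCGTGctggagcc
Stc2 (chr11:31370012-31370311, minus strand) held 2 matches of GCGTG and none of ACGTG. Egln3 (chr12:54203825-54204124, minus strand) held 1 ACGTG, at position -229 from the start of the gene. In Slc16a3 (chr11:120948817-120949116, plus strand) 2 matches of ACGTG lay close together, at positions -27 and -14 from the start. P4ha2 (chr11:54100674-54100973, plus strand) held 2 of each motif. Aldoa (chr7:126799205-126799504, minus strand) held 1 ACGTG, and Ldha (chr7:46845554-46845853, plus strand) held 5 matches of ACGTG and 2 of GCGTG. The window with the most matches of these 6 thus belongs to Ldha, whose change in OIR was small. Among members that rose in OIR, 9 of 12 windows held ACGTG and 12 of 12 held either motif; among those without a called change the counts were 15 of 23 and 19 of 23. A match is a description of these letters, not evidence that HIF binds there.

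The values are deposited log2 values, 1 per probe set and array, so that a difference of 1 is a doubling. Arrays of 1 group correlated at 0.964 to 0.997 and no pair was identical. Rod markers averaged 13.2 to 13.3 and Muller glia markers 11.7 to 12 in all 10 groups. Other features moved with the injection day. Lens markers (12 of 15 measured) averaged 7.46 to 14.1 on P5 arrays, 6.03 to 7.09 on P12 arrays and 5.99 to 9.08 on arrays without injection. Probe sets of spiked hybridisation controls averaged 13.23 to 13.65 on P12 arrays, 11.9 to 13.0 on P5 arrays and 12.4 to 12.8 on the others. Probe sets of genes that should be silent (Eif2s3y on arrays with high Xist, Xist on the rest) read 3.84 to 5.70, so a value in that range is at background. Xist, a transcript of female cells, was high on 14 arrays and low on 16, so both sexes are present. The sexes are not balanced: with both kinds of cell, all P12 retinas had low Xist and all P5 retinas high Xist. The part of sex in the results was not tested.

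**Figure D1:**
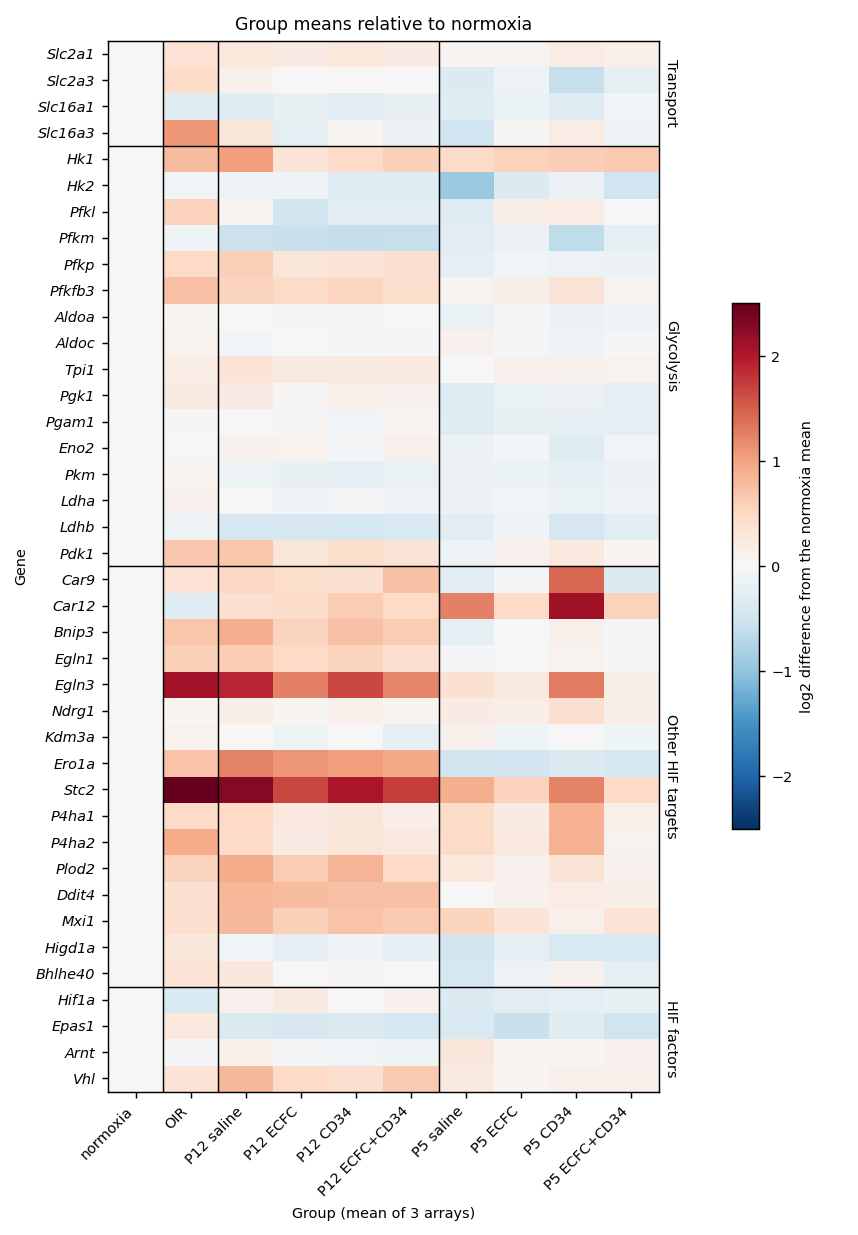
Mean log2 value of each of the 40 measured genes (rows, by role) in the 10 groups (columns, 3 arrays each), as the difference from the normoxia mean; red is higher and blue lower. OIR and the P12 groups share a red block among the other HIF targets (Egln3, Ero1a, Stc2), while in the P5 groups most of these rows are pale and Hk2 after saline is blue.

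The comparison of OIR with normoxia shows what the disease model did to these genes. Of the 40 measured genes 13 rose and none fell (limma, adjusted p under 0.05; at an unadjusted p under 0.05 the count of all genes was 2455). Over all genes 4.56% were called, 3.59% higher and 0.968% lower. The rises were not spread evenly over the roles: 8 of 16 other targets, 4 of 16 enzymes of glycolysis and pyruvate use, 1 of 4 transporters and 0 of 4 HIF genes passed. The median log2 difference was 0.45 for the other targets and 0.14 for enzymes and transporters together, against -0.02 for all genes. The arrays of the groups did not overlap for 24 of 40 members, against 26.2% of all genes. Below, ± after a log2 difference is its standard error, with 3 arrays against 3 and 20 residual degrees of freedom.

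Among the other targets the gene with the largest rise was Stc2, which encodes the secreted glycoprotein stanniocalcin. Its normoxia arrays read 7.48, 7.32 and 7.13, and its OIR arrays read 9.73, 9.60 and 10.12. The groups lie more than 2 log2 units apart, and the difference was 2.51 ± 0.24 (5.68-fold, adjusted p = 9.7e-07). A second Stc2 probe set differed by 1.02 ± 0.18. Egln3, a prolyl hydroxylase that marks HIF and is itself induced by it, read 6.91, 6.44 and 6.92 in normoxia and 8.36, 8.46 and 9.74 in OIR. The third OIR retina stands more than 1 unit above the other two; the difference was 2.10 ± 0.48 (4.28-fold, adjusted p = 0.011), and without that array it was 1.65 with an adjusted p of 0.11. The second Egln3 probe set differed by 2.64 ± 0.51. Its relative Egln1, the main oxygen sensor of most cells, rose by 0.61 ± 0.14 (adjusted p = 0.011).

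Genes of matrix and protein folding followed. P4ha2, a collagen prolyl hydroxylase, read 7.62, 7.74 and 7.40 in normoxia and 8.50, 8.33 and 8.69 in OIR, a rise of 0.92 ± 0.19 (adjusted p = 0.0037). Its relative P4ha1 differed by 0.48 ± 0.14 and missed the threshold (adjusted p = 0.056), with no overlap of arrays. Plod2, a lysyl hydroxylase that prepares collagen for crosslinks, rose by 0.55 ± 0.13 (adjusted p = 0.01). Ero1a, the oxidase that drives disulfide formation in the endoplasmic reticulum, read 9.93, 9.69 and 9.81 in normoxia and 10.51, 10.27 and 10.79 in OIR, a rise of 0.72 ± 0.18 (adjusted p = 0.019). For these 3 called genes every OIR array lay above every normoxia array.

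Bnip3, a mitochondrial protein that marks mitochondria for removal, read 11.49, 11.55 and 11.68 in normoxia. It read 12.24, 12.12 and 12.49 in OIR, a rise of 0.71 ± 0.13 (adjusted p = 0.0018). Ddit4, an inhibitor of the growth kinase mTOR, rose by 0.39 ± 0.11 and lay at the threshold (adjusted p = 0.049). Of the 8 other targets that were not called, 7 had positive differences, from 0.05 ± 0.08 for Ndrg1 to P4ha1. Mxi1, an antagonist of MYC, differed by 0.42 ± 0.13 (adjusted p = 0.059), Bhlhe40, a repressor, by 0.34 ± 0.20, Higd1a, a mitochondrial membrane protein, by 0.28 ± 0.10 and Kdm3a, a histone demethylase, by 0.09 ± 0.11. Other probe sets of Ndrg1 read larger differences, among them 0.28 ± 0.08 with an adjusted p of 0.045 over probe sets. The carbonic anhydrases Car9 (0.38 ± 0.45) and Car12 (-0.30 ± 0.46), which control pH at the cell surface, had errors larger than their differences. Car9 read 5.22 to 6.30 in these 6 arrays, partly inside the background range.

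In glycolysis the called genes were those of entry, control and pyruvate use rather than the middle steps. Hk1, the hexokinase that commits glucose to the cell, read 11.14, 11.51 and 10.27 in normoxia and 11.72, 11.61 and 11.97 in OIR. The third normoxia array lies far below the others. The rise of 0.79 ± 0.22 (adjusted p = 0.04) was not seen by the other Hk1 probe set, which differed by 0.03 ± 0.16. Pfkfb3, whose product activates phosphofructokinase, read 8.21, 8.48 and 8.14 in normoxia. It read 8.96, 8.88 and 9.22 in OIR, a rise of 0.74 ± 0.19 (adjusted p = 0.019), and the second probe set gave 0.68 ± 0.15. Pdk1, the kinase that shuts pyruvate dehydrogenase, read 8.95, 9.38 and 9.12 in normoxia and 9.82, 9.63 and 10.02 in OIR. Its rise was 0.67 ± 0.17 (1.60-fold, adjusted p = 0.018). Pfkp, the platelet-type phosphofructokinase, rose by 0.49 ± 0.12 (adjusted p = 0.013), while the liver-type Pfkl differed by 0.57 ± 0.18 and missed the threshold (adjusted p = 0.069) and the muscle-type Pfkm by -0.11 ± 0.17.

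The remaining enzymes gave small differences with narrow intervals. Ldha, which turns pyruvate into lactate, read 13.81, 13.96 and 13.89 in normoxia and 14.00, 13.99 and 13.95 in OIR. The arrays overlap, and the difference of 0.10 ± 0.08 has a 95% interval of -0.07 to 0.26. Hk2, the inducible hexokinase and a textbook HIF target, read 11.35, 11.40 and 11.36 in normoxia and 11.33, 11.16 and 11.45 in OIR, a difference of -0.06 ± 0.14 (interval -0.34 to 0.22). Pgk1, the first enzyme of the pathway to yield ATP, read 13.34, 13.42 and 13.27 in normoxia and 13.47, 13.61 and 13.64 in OIR. Its arrays did not overlap, but 0.23 ± 0.09 was not called (adjusted p = 0.14). Tpi1 differed by 0.18 ± 0.09, Aldoc by 0.08 ± 0.10, Pkm by 0.06 ± 0.08, Aldoa by 0.05 ± 0.07, Pgam1 by 0.03 ± 0.07, Eno2 by 0.00 ± 0.10 and Ldhb by -0.12 ± 0.16. None of these 7 had an interval that reached a log2 difference of 0.5.

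**Figure D2:**
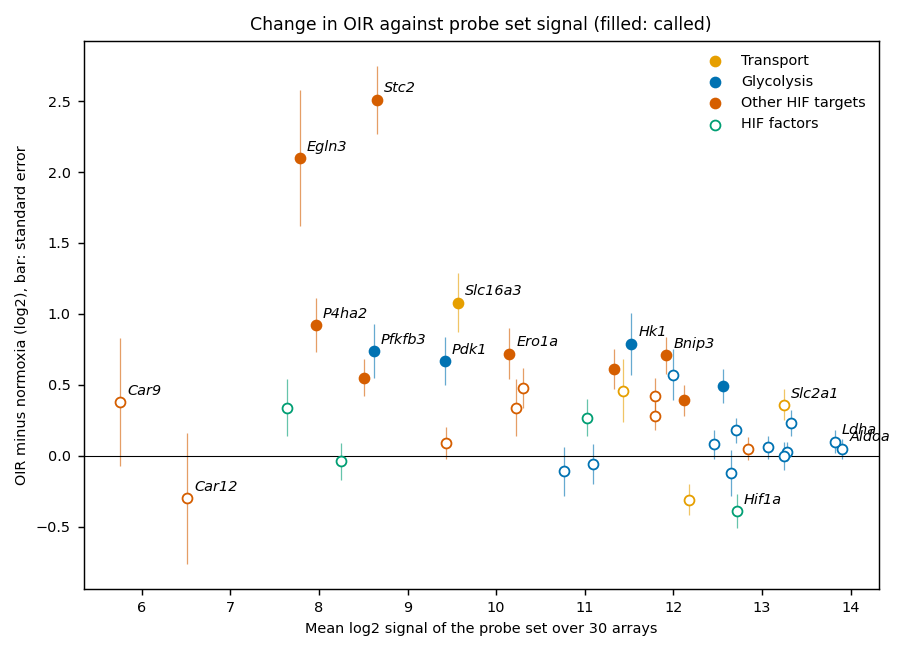
Each point is 1 of the 40 genes: the mean log2 signal of its probe set over all 30 arrays (x) against its log2 difference between OIR and normoxia (y, with standard error), coloured by role and filled where called. The largest rises (Stc2, Egln3) lie at signals of 7 to 9, and none of the 7 genes with a signal above 13 was called.

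The size of a difference went along with the signal of the probe set. Of 7 members with a mean signal from 7 to 9, 5 were called; of 7 with a signal of 13 or more (Slc2a1, Aldoa, Pgk1, Pgam1, Eno2, Pkm and Ldha) 0 were. Among all 134 genes at 13 or more, 3 (2.24%) were called and the largest rise was 0.545, while genes at 7 to 9 were called in 6.66% of cases with rises of up to 3.25. Across the 40 members Spearman's rho between signal and difference was -0.42, and across all 12393 genes it was 0.21, as a description over genes that share arrays. The part of the narrow range at the top of the scale in the small differences of these 7 genes was not tested.

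Of the transporters 1 passed. Slc16a3, the lactate exporter of glycolytic cells, read 9.66, 9.64 and 9.22 in normoxia and 10.42, 10.48 and 10.84 in OIR. All OIR arrays lie above all normoxia arrays, and the rise was 1.08 ± 0.21 (2.11-fold, adjusted p = 0.003). Slc2a1, the glucose transporter of glia, photoreceptors and vessel walls, read 13.24, 13.10 and 12.88 in normoxia and 13.40, 13.41 and 13.48 in OIR. Its arrays did not overlap either, and 0.36 ± 0.11 just missed the threshold (adjusted p = 0.059). The neuronal glucose transporter Slc2a3 differed by 0.46 ± 0.22 and the lactate transporter Slc16a1 by -0.31 ± 0.11 (adjusted p = 0.12).

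The 4 genes of the HIF system itself did not pass. Hif1a read 12.74, 12.73 and 13.00 in normoxia and 12.62, 12.38 and 12.30 in OIR, so that the OIR arrays were the lower ones (-0.39 ± 0.12, adjusted p = 0.055). Its 4 probe sets did not run one way: the others differed by -0.26 ± 0.10, -0.05 ± 0.08 and 0.52 ± 0.22. Vhl read 7.56, 7.46 and 6.95 in normoxia and 7.76, 7.72 and 7.50 in OIR, with overlap (0.34 ± 0.20). Epas1 differed by 0.27 ± 0.13 and Arnt by -0.04 ± 0.13. HIF activity is set by protein stability, which RNA does not show.

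Individual retinas carried part of the OIR result. The third OIR retina had the highest value of its group for 25 of 40 members (27.7% of all genes). Without it 4 members passed (Stc2, Slc16a3, P4ha2 and Bnip3), and without the third normoxia retina 7 did. That normoxia retina was lowest of its group for 22 of 40 members (38.1% of all genes). Its 3′ and 5′ Gapdh control probe sets lay furthest apart of all 30 arrays (1.85, against 1.40 and 1.39 in the other normoxia retinas). In the OIR retinas the gap was 1.45, 1.38 and 1.23, smallest in the third. This gap is a measure of RNA quality, and its part in the rises was not tested. Markers of other cells moved with the comparison: 4 of 7 endothelial markers rose, from list means of 8.44 to 8.63 in normoxia to 9.40 to 9.57 in OIR, as did 3 of 7 microglia and macrophage markers (7.11 to 7.23 against 7.93 to 8.17). Of 7 Muller glia markers, Aqp4 was lower (-0.87 ± 0.17, adjusted p = 0.002) and Vim higher (0.49 ± 0.14, adjusted p = 0.046). Their list means were 12 to 12.1 in normoxia and 11.6 to 11.9 in OIR. In whole retina, more cells of a type and more RNA per cell cannot be told apart, and the part of these cells in the rises was not tested. The direction of calls over all genes depended on scaling: 78.8% of called genes were higher on the deposited values, 64.5% with quantile-normalized arrays and 53.8% with arrays centred on their medians, where all genes had a median difference of -0.10. Among the members 15 rose and 1 fell with quantile normalization, and 12 rose and 0 fell with centring.

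**Figure D3:**
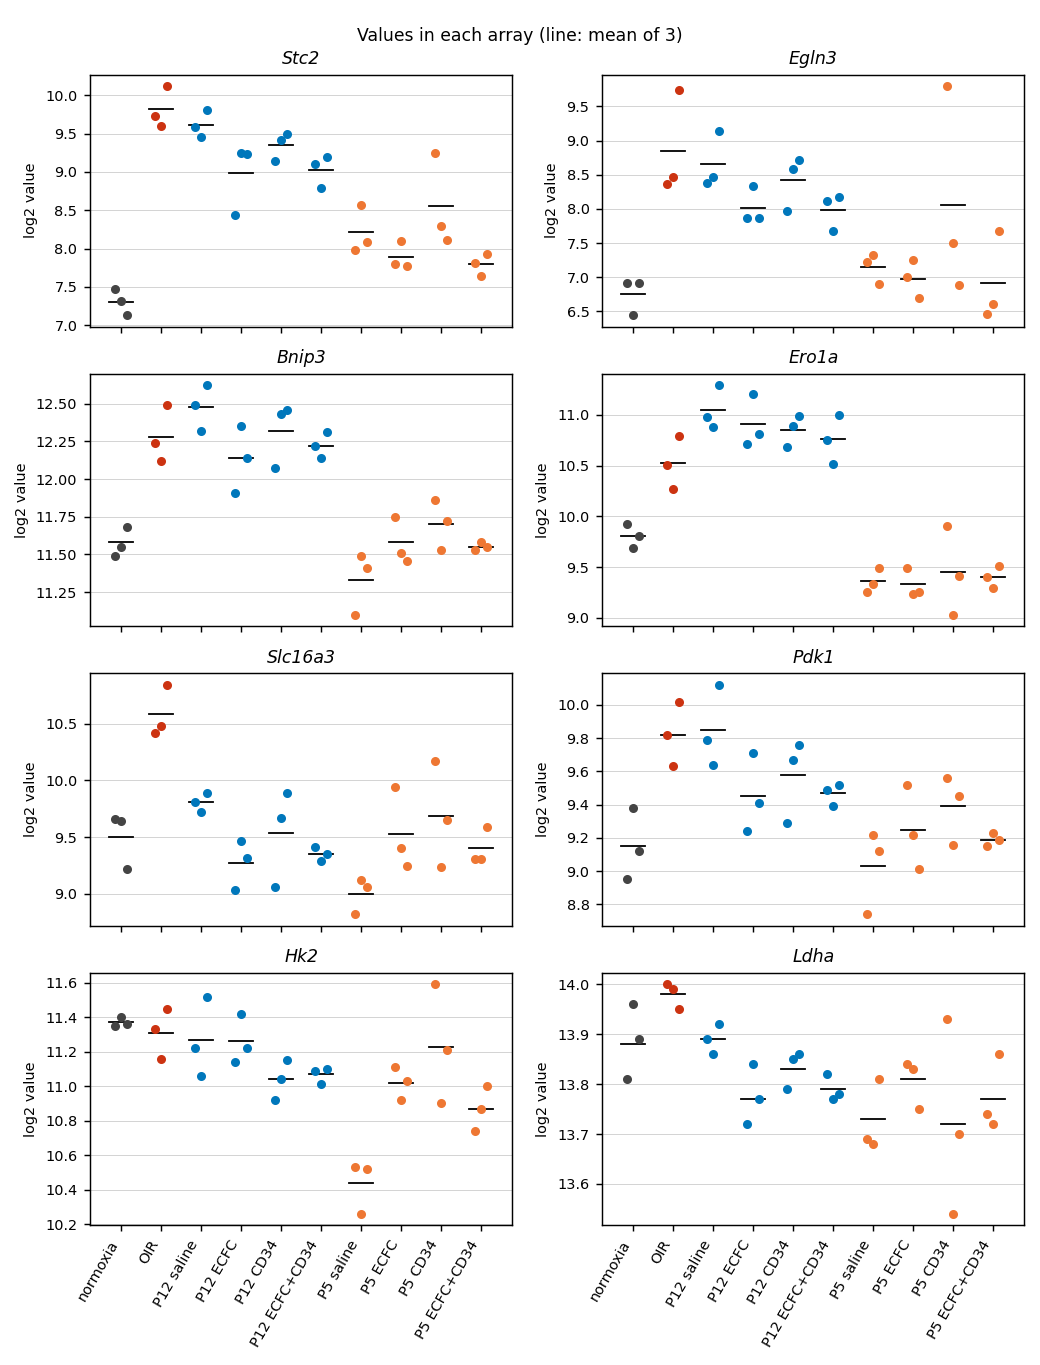
Log2 value of 8 genes in each of the 30 arrays (points) by group, with the mean of 3 (line); grey is normoxia, red OIR, blue the P12 and orange the P5 groups. For Stc2, Egln3, Bnip3 and Ero1a the OIR and P12 arrays are high and most P5 arrays low, while Hk2 is lowest in the 3 P5 saline arrays and Ldha spans less than 0.5 in all.

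Other genes of the pathway, taken from lists outside the members, were counted beside the members. Of 21 measured other HIF targets 9 rose in OIR (3.59% of all genes were called higher), among them Apln, a vessel peptide, by 3.25 ± 0.35, Adm, a vessel-widening peptide, by 3.16 ± 0.39, and Cxcr4, a chemokine receptor, by 1.57 ± 0.20. Of 11 regulators of HIF, 16 genes of other glucose routes and 21 genes of pyruvate entry and the citric acid cycle, 0 were called in OIR. The 21 mitochondrial genes had a median difference of -0.07.

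Saline at P12 against OIR sets injected retinas against retinas without a labelled injection in the hypoxic phase. Spiked hybridisation controls also separate these groups (13.3 to 13.5 on P12 saline arrays, 12.4 to 12.5 on OIR arrays). The injection and whatever moved these controls cannot be told apart. The members had a median difference of -0.02, with called genes in both directions. Called were 9 of 40 members, which is near the 21.3% called over all genes: 5 rose (5.95% of all genes) and 4 fell (15.4%). Here too scaling decided the split of all called genes: 27.9% were higher on the deposited values, 47.7% with quantile-normalized arrays and 68.9% with centred arrays (median of all genes 0.16). With quantile normalization 6 members rose and 3 fell, and with centring 9 rose and 2 fell.

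The 5 that rose were Ero1a, Hif1a, Ddit4, Mxi1 and Plod2. Ero1a read 10.98, 10.88 and 11.29 after P12 saline, above all OIR arrays (0.52 ± 0.18, adjusted p = 0.04), although its other probe sets differed by 0.17 ± 0.17 and -0.12 ± 0.17. Hif1a read 12.99, 12.82 and 12.94 (0.48 ± 0.12, adjusted p = 0.0043), and a second of its 4 probe sets rose by 0.64 ± 0.08. The remaining Hif1a probe sets are not given for this comparison. The call was kept with the mean of all 4. These Hif1a values lie within the normoxia range of 12.73 to 13.00. Ddit4 read 12.49, 12.57 and 12.62 against 12.18, 12.10 and 12.07 in OIR (0.44 ± 0.11, adjusted p = 0.0067). Mxi1 read 12.22, 12.07 and 12.16 against 11.83, 11.66 and 11.79 (0.39 ± 0.13, adjusted p = 0.032). Plod2 read 9.04, 8.96 and 9.03 against 8.55, 8.47 and 8.86 (0.39 ± 0.13, adjusted p = 0.03). The second probe sets of Plod2 (-0.28 ± 0.18) and Mxi1 (0.11 ± 0.14) did not follow, and with the mean of a gene's probe sets the difference was 0.06 for Plod2 (adjusted p = 0.82), 0.25 for Mxi1 (0.17) and 0.19 for Ero1a (0.45). Plod2 lost its call in 7 of 17 alternatives. For each of these 5 genes the groups did not overlap, as for 17 of 40 members and 48.3% of all genes.

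The 4 that fell were Slc16a3, Epas1, Pfkl and Higd1a. Slc16a3 read 9.81, 9.72 and 9.89, between normoxia and OIR (-0.78 ± 0.21, adjusted p = 0.012). Epas1, which encodes the alpha subunit most prominent in endothelium, read 10.99, 10.98 and 10.95 against 11.56, 11.57 and 11.68 in OIR, a fall to below its normoxia arrays of 11.42, 11.35 and 11.22 (-0.63 ± 0.13, adjusted p = 0.0014). Higd1a read 11.94, 11.76 and 12.02 against 12.29, 12.21 and 12.27 (-0.35 ± 0.10, adjusted p = 0.012). Pfkl read 12.06, 12.05 and 12.16 against 12.47, 12.58 and 12.74 (-0.51 ± 0.18, adjusted p = 0.045), and a covariate for the hybridisation controls turned it to 0.06. The same covariate ended the calls of Slc16a3 (-0.21, adjusted p = 0.61), Higd1a (-0.30, adjusted p = 0.15), Hif1a (0.40, adjusted p = 0.1) and Plod2 (0.46, adjusted p = 0.082). Without the third OIR retina Slc16a3 differed by -0.65 (adjusted p = 0.063). The signature genes Stc2 (-0.21 ± 0.24) and Egln3 remained high: Egln3 read 8.38, 8.47 and 9.14, beside 8.36, 8.46 and 9.74 in OIR.

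In P5 saline against OIR, 20 of 40 members were lower and 1 was higher. Over all genes 8.69% were called, 4.88% lower and 3.81% higher. By role, 9 of 16 enzymes, 8 of 16 other targets, 2 of 4 transporters and 1 of 4 HIF genes fell. The median difference was -0.54 for the other targets and -0.31 for enzymes and transporters, against 0.02 for all genes. Unlike in OIR against normoxia, enzymes of the middle and end of glycolysis were among those called.

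Egln3 read 7.22, 7.33 and 6.90 after P5 saline, near its normoxia values (-1.70 ± 0.48, adjusted p = 0.03). Stc2 read 7.98, 8.57 and 8.09, between the 2 untreated groups (-1.60 ± 0.24, adjusted p = 4.4e-04). Slc16a3 read 8.82, 9.12 and 9.06, below all normoxia arrays (-1.58 ± 0.21, adjusted p = 2.1e-04). These 3 genes had the largest rises in OIR and the largest falls here, in comparisons that share the OIR arrays. Ero1a read 9.26, 9.33 and 9.49 (-1.17 ± 0.18, adjusted p = 4.9e-04), and Bnip3 read 11.10, 11.49 and 11.41 (-0.95 ± 0.13, adjusted p = 2.8e-04). Both lay at or below their normoxia arrays.

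Among enzymes and transporters, Hk2 read 10.53, 10.26 and 10.52 after P5 saline, the 3 lowest values of all 30 arrays (-0.88 ± 0.14, 1.84-fold lower, adjusted p = 5.0e-04). Pfkl read 11.46, 11.79 and 11.85 (-0.90 ± 0.18, adjusted p = 0.0031). Slc2a3 read 10.42, 11.49 and 11.59 against 11.90, 11.93 and 12.07 in OIR (-0.80 ± 0.22, adjusted p = 0.023), with 1 array far below the others. Pdk1 (-0.80 ± 0.17), Pfkp (-0.73 ± 0.12), Pfkfb3 (-0.66 ± 0.19), Pgk1 (-0.56 ± 0.09), Pgam1 (-0.34 ± 0.07), Ldha (-0.25 ± 0.08) and Aldoa (-0.21 ± 0.07) also fell. The largest of these steps is 1.74-fold, and those of Ldha and Aldoa are 1.19-fold and 1.16-fold. Higd1a (-0.73 ± 0.10), Bhlhe40 (-0.78 ± 0.20), Egln1 (-0.65 ± 0.14), Epas1 (-0.65 ± 0.13) and Ddit4 (-0.40 ± 0.11) complete the lower genes.

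Car12 went the other way. It read 6.36, 7.37 and 7.75 after P5 saline against 6.05, 5.41 and 5.34 in OIR (1.56 ± 0.46, adjusted p = 0.035). The groups did not overlap, as for 28 of 40 members and 29.2% of all genes. Because 2 of the 3 OIR arrays lie in the background range, no fold is given.

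Tissue markers also differed between these groups. All 12 measured lens markers were higher after P5 saline, with list means of 10.9 to 13.8 against 5.99 to 7.05 in OIR. Of 8 pigment epithelium markers 6 were higher (8.48 to 10.3 against 7.58 to 7.69), and 4 of 7 endothelial markers were lower (8.45 to 8.96 against 9.40 to 9.57). With the lens mean as a covariate 3 members were called, namely Bnip3 and Higd1a lower and Car12 higher. The part of these tissues in the lower values was not tested. Fitted without the other groups, 9 members were called, all lower.

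Against normoxia, fewer members were called in the same P5 saline retinas than against OIR. At an unadjusted p under 0.05 (limma), 20 of 40 members and 2829 of all 12393 genes were below the line. The median difference was -0.15 for the members and 0.02 for all genes. Called were 6 of 40 members (8.1% of all genes, 4.2% lower and 3.91% higher): Hk2 (-0.94 ± 0.14, 1.91-fold, adjusted p = 5.7e-04), Higd1a (-0.45 ± 0.10), Pgk1 (-0.33 ± 0.09) and Pgam1 (-0.31 ± 0.07) were lower, and Stc2 (0.91 ± 0.24, adjusted p = 0.019) and Mxi1 (0.55 ± 0.13, adjusted p = 0.0091) were higher. Mxi1 read 11.76, 11.99 and 11.93 after P5 saline against 11.53, 11.29 and 11.20 in normoxia. Higd1a read 11.40, 11.53 and 11.63 against 11.90, 11.99 and 12.03. Both pairs of groups are apart, as for 16 of 40 members and 24% of all genes. Pgk1 read 12.95, 12.95 and 13.14, and Pgam1 read 13.00, 13.03 and 13.17 against 13.39, 13.40 and 13.33 in normoxia. Fitted without the other groups 0 were called, and with a covariate for the hybridisation controls 15 were. All 12 lens markers were also higher in this comparison (list means 10.9 to 13.8 against 6.3 to 9.08). With the lens covariate Pgk1 (-0.15, adjusted p = 0.39), Pgam1 (-0.25, adjusted p = 0.14) and Higd1a (-0.40, adjusted p = 0.077) were not called, while Hk2 (-0.63, adjusted p = 0.034), Stc2 (1.31, adjusted p = 0.025) and Mxi1 (0.74, adjusted p = 0.02) were. Of 8 pigment epithelium markers 2 were also higher, and their part was not tested. Without the second P5 saline array the count was 3.

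Between the saline groups, the P5 retinas had lower values for 18 of 40 members and higher values that passed for 0 (27.7% of all genes were called, 8.57% lower). Ero1a differed by -1.69 ± 0.18 (3.22-fold, adjusted p = 6.5e-07), Egln3 by -1.52 ± 0.48, Stc2 by -1.39 ± 0.24 and Bnip3 by -1.14 ± 0.13. Of the enzymes Pfkp (-0.84 ± 0.12), Hk2 (-0.83 ± 0.14), Pdk1 (-0.82 ± 0.17), Pgk1 (-0.53 ± 0.09), Tpi1 (-0.34 ± 0.09) and Pgam1 (-0.32 ± 0.07) fell, as did the transporter Slc16a3 (-0.80 ± 0.21). Ddit4 (-0.84 ± 0.11), Bhlhe40 (-0.73 ± 0.20), Egln1 (-0.69 ± 0.14), Plod2 (-0.67 ± 0.13), Higd1a (-0.38 ± 0.10), Vhl (-0.59 ± 0.20) and Hif1a (-0.45 ± 0.12) were the others. Pfkp read 12.22, 12.07 and 12.21 after P5 saline against 13.03, 12.87 and 13.11 after P12 saline. Pdk1 read 8.74, 9.22 and 9.12 against 9.79, 9.64 and 10.12, and Ddit4 read 11.44, 11.81 and 11.91 against 12.49, 12.57 and 12.62. In all 3 genes the groups are apart, as for 26 of 40 members and 44.1% of all genes. The lens and hybridisation control values also separate these groups. With the lens covariate 5 members were called, and Egln3 turned to 0.05. Over all genes 69.1% of calls were higher at P5 on the deposited values, 50.2% with quantile-normalized arrays and 35.1% with centred ones (median of all genes -0.15). Centring called 28 members and quantile normalization 22, all lower.

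Cells at P12 were compared with P12 saline to ask whether they altered the hypoxia response once it had begun. With each of the 3 cell treatments 0 of 40 members were called, over all genes 0.0161% with ECFC, 0% with CD34+ cells and 0% with both. At an unadjusted p under 0.05, 1996, 643 and 1226 of all genes were below the line. Differences were small and mostly negative: 34 of 40 members with ECFC (47% of all genes), 36 with CD34+ cells (37.4%) and 32 with both (54%), at medians of -0.12, -0.11 and -0.13. The 3 comparisons share the saline arrays, of which the third was highest of its group for 29 of 40 members (25.5% of all genes). The arrays also differed in spread. Their interquartile range averaged 3.44 with saline, 3.21 with ECFC, 3.33 with CD34+ cells and 3.23 with both. The part of these features in the negative differences was not tested.

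The member with the largest difference at P12 was the hexokinase Hk1 with ECFC. It read 11.36, 11.25 and 11.27 with ECFC against 12.01, 11.92 and 12.07 with saline (-0.71 ± 0.22, adjusted p = 0.18). It differed by -0.56 ± 0.22 with CD34+ cells (adjusted p = 0.92) and by -0.44 ± 0.22 with both (adjusted p = 0.51). Stc2 read 8.44, 9.25 and 9.24 with ECFC against 9.58, 9.45 and 9.81 (-0.63 ± 0.24, adjusted p = 0.23), and differed by -0.58 ± 0.24 with both (adjusted p = 0.5). Plod2 read 8.73, 8.42 and 8.57 with both kinds of cell against 9.04, 8.96 and 9.03 (-0.44 ± 0.13, adjusted p = 0.5). Arrays of these comparisons did not overlap, as for 27.5% of all genes with ECFC, 20.7% with CD34+ cells and 24% with both. None of these differences passed the threshold over all genes. The 95% interval for Stc2 with ECFC runs from -1.13 to -0.14. In the direct comparison of ECFC with CD34+ cells at P12, 0 members were called (0% of all genes, 464 of them at an unadjusted p under 0.05).

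**Figure D4:**
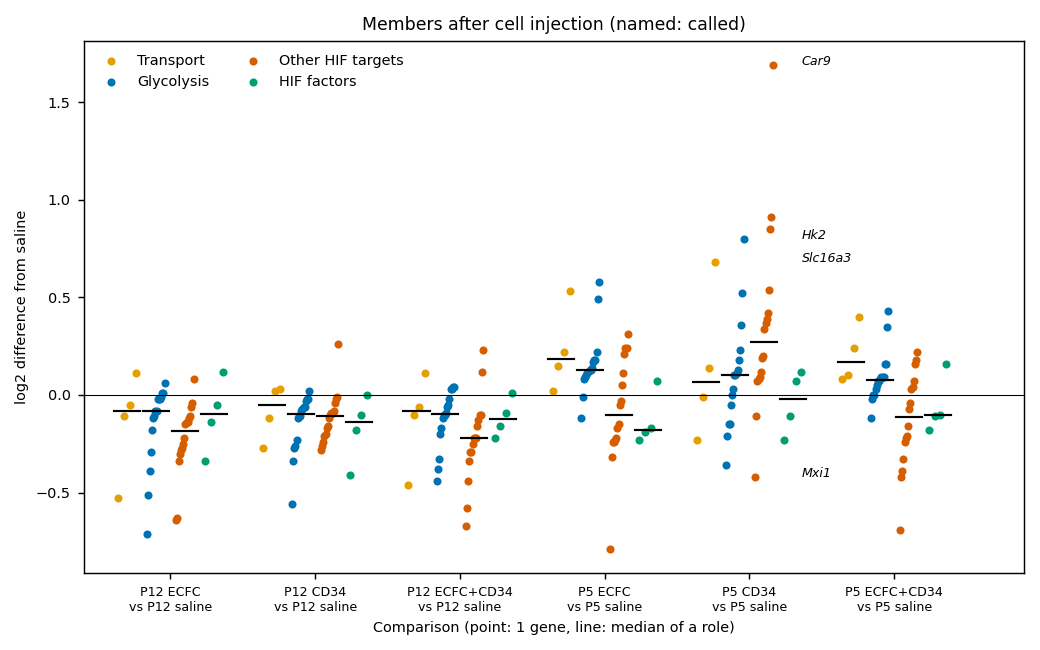
Log2 difference from saline of the 40 genes (points, by role, with the median as a line) for 3 cell treatments at P12 and 3 at P5; called genes are named. At P12 most points lie just below 0 and none is called; at P5 the CD34+ comparison has the widest spread and 4 called genes.

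Cells at P5 were compared with P5 saline to ask whether treatment before the oxygen changed the later state. ECFC and the combination called 0 of 40 members each (0% of all genes; 779 and 978 genes at an unadjusted p under 0.05). With CD34+ cells 3 members rose and 1 fell (8.46% of all genes were called, 3.07% higher and 5.4% lower). Hk2 was the clearest of the 3 that rose. It read 11.59, 10.90 and 11.21 with CD34+ cells against 10.53, 10.26 and 10.52 with saline (0.80 ± 0.14, 1.74-fold, adjusted p = 0.0022). With ECFC it read 11.11, 10.92 and 11.03 (0.58 ± 0.14, adjusted p = 0.34), and with both 10.74, 10.87 and 11.00 (0.43 ± 0.14, adjusted p = 0.38). All 9 retinas that received cells at P5 lay above all 3 that received saline, and all but 1 below the normoxia minimum of 11.35. Groups did not overlap for 9.56% of all genes with ECFC, 18.7% with CD34+ cells and 14% with both. These comparisons share the saline arrays.

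Slc16a3 read 10.17, 9.24 and 9.65 with CD34+ cells against 8.82, 9.12 and 9.06 with saline (0.68 ± 0.21, adjusted p = 0.048). Car9 read 8.63, 5.97 and 5.97 against 5.56, 4.76 and 5.16 (1.69 ± 0.45, adjusted p = 0.022). Its saline arrays are in the background range, so no fold is given, and 1 array makes most of the difference. Mxi1 read 11.81, 11.08 and 11.54 against 11.76, 11.99 and 11.93, with overlap (-0.42 ± 0.13, adjusted p = 0.04).

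The first CD34+ retina injected at P5 stood apart. It had the highest value of its group for 30 of 40 members (44.8% of all genes). Egln3 read 9.80 there against 7.50 and 6.89 in the other retinas of the group, and Stc2 9.25 against 8.30 and 8.11. The list means of other tissues also differed: lens 7.46 against 14.1 and 14, and microglia and macrophages 9.73 against 7.86 and 8.72. Xist read 4.62 there against 12.3 and 12.4 in the others, so this retina also differed in sex. Without this retina the difference was 0.62 for Hk2 (adjusted p = 0.0081), 0.81 for Car9 (0.13) and 0.44 for Slc16a3 (0.26). Without the second or the third P5 saline retina 1 member was called. Markers of several cell types moved with this comparison. All 5 measured ganglion cell markers fell, by 1.17 to 2.09, with list means of 8.87 to 11.5 against 11.3 to 11.8 after saline. Of 5 amacrine markers 2 fell (list means 10.5 to 11.6 against 11.5 to 11.8), and of 3 bipolar markers 1 rose and 2 fell (9.73 to 10.5 against 9.84 to 10.6). Of 8 pigment epithelium markers 3 rose (10.3 to 10.9 against 8.48 to 10.3), and so did 3 of 7 microglia and macrophage markers (7.86 to 9.73 against 7.59 to 8.26). Their part in these results was not tested.

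**Figure D5:**
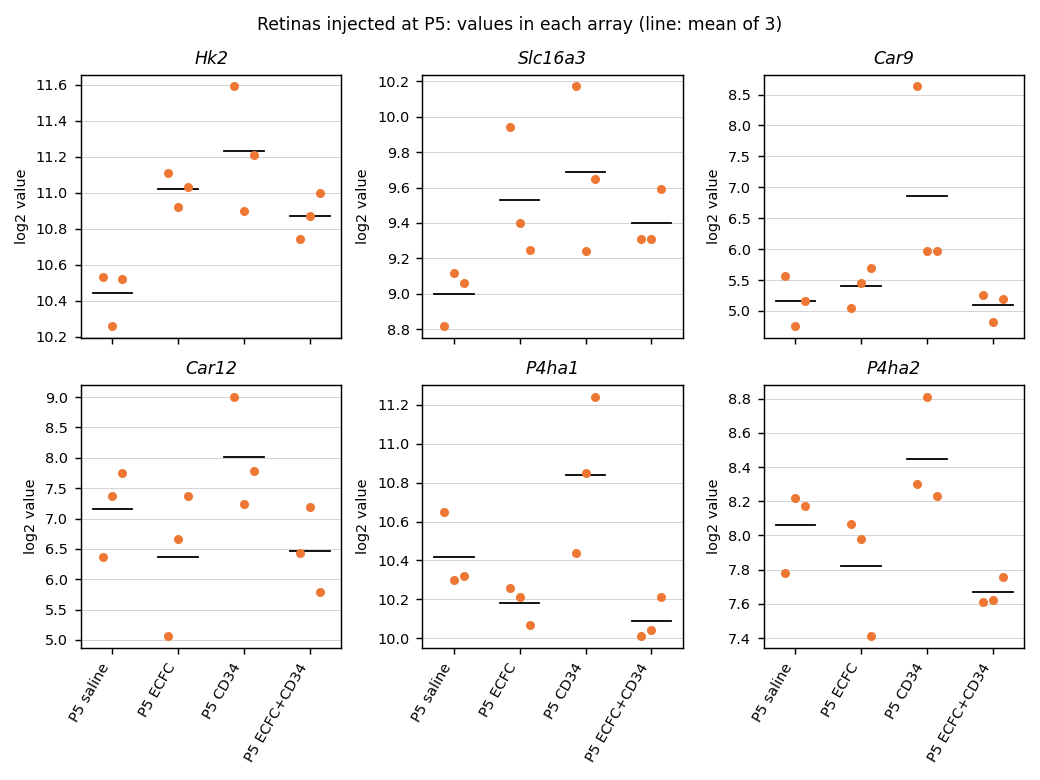
Log2 value of 6 genes in each of the 12 retinas injected at P5 (points), by group, with the mean of 3 (line). Every retina with cells is above the 3 saline retinas for Hk2, a single CD34+ retina at 8.63 sets Car9, and P4ha1 and P4ha2 are higher with CD34+ cells than with ECFC or both.

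Between cell treatments at P5 the collagen hydroxylases P4ha1 and P4ha2 and the carbonic anhydrases were the members called. Against CD34+ cells alone, ECFC gave lower values for 3 members (7.08% of all genes called, 2.79% lower and 4.28% higher) and the combination for 4 (7.83%, 3.56% lower and 4.27% higher). P4ha1 read 10.44, 10.85 and 11.24 with CD34+ cells, 10.26, 10.21 and 10.07 with ECFC and 10.01, 10.04 and 10.21 with both. The differences were -0.66 ± 0.14 (adjusted p = 0.0063) and -0.76 ± 0.14 (adjusted p = 0.0026). P4ha2 read 8.30, 8.81 and 8.23 with CD34+ cells, 8.07, 7.98 and 7.41 with ECFC and 7.61, 7.62 and 7.76 with both (-0.63 ± 0.19 and -0.78 ± 0.19, adjusted p = 0.042 and 0.012). Both genes had groups that did not overlap, as for 16.7% of all genes against ECFC and 20.1% against both. Car12 read 9.00, 7.24 and 7.78 with CD34+ cells, 5.06, 6.67 and 7.37 with ECFC and 6.44, 7.19 and 5.79 with both. Its differences were -1.64 ± 0.46 (adjusted p = 0.029) and -1.53 ± 0.46 (adjusted p = 0.04). Car9 read 5.25, 4.82 and 5.20 with both, at background (-1.77 ± 0.45, adjusted p = 0.017), and 5.04, 5.45 and 5.70 with ECFC (-1.46 ± 0.45, adjusted p = 0.053). Without the first CD34+ retina, P4ha1 kept its calls (-0.86 and -0.96) and P4ha2 kept that against both kinds of cell (-0.85, adjusted p = 0.015) but not that against ECFC (-0.70, adjusted p = 0.06), while Car12 (-1.14 and -1.04, adjusted p = 0.2 and 0.24) and Car9 (-0.88, adjusted p = 0.1) lost theirs. Without the second CD34+ retina P4ha2 lost both calls (-0.44, adjusted p = 0.18, against ECFC, and -0.60, adjusted p = 0.051, against both). Its call against ECFC was lost in 8 of 17 alternatives. Cell type markers differed in the same comparisons. All 5 ganglion cell markers were higher with ECFC and with both than with CD34+ cells (list means 11.5 to 11.8 and 10.7 to 11.8 against 8.87 to 11.5). Of 3 bipolar markers 2 were higher and 1 lower in each comparison, and 3 and 2 of 5 amacrine markers were higher. Of 8 pigment epithelium markers 4 were lower in each (7.59 to 9.6 and 7.75 to 9.48 against 10.3 to 10.9). The part of these cells was not tested.

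Whether a treatment acted differently at the 2 injection days was tested as the difference between its effects. For CD34+ cells 1 member passed (1.9% of all genes, 0.403% higher and 1.49% lower): Hk2, at 0.80 for P5 and -0.23 for P12, a difference of 1.03 ± 0.19 (adjusted p = 0.017). Without the third P12 saline array no member passed, and Hk2 differed by 0.90 with an adjusted p of 0.064. Fitted on the groups compared alone, its difference of 1.03 had an adjusted p of 0.14. The same difference was 0.59 ± 0.19 for ECFC (adjusted p = 0.3) and 0.64 ± 0.19 for the combination (adjusted p = 0.33). For these treatments 0 members were called (0.0323% of all genes for ECFC, 0.00807% higher and 0.0242% lower, and 0% for the combination, with 1480 and 1419 at an unadjusted p under 0.05).

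Seen over all 10 groups, members fell into a few patterns. OIR had the highest mean for 15 members and P12 saline for 11. P5 saline had the lowest mean for 12, and normoxia also for 12. Stc2 spanned a range of group means of 2.51, from normoxia (7.31) to OIR (9.82). Egln3 spanned 2.10, from normoxia (6.76) to OIR (8.85). Car12 was highest in P5 CD34+ (8.01), and its lowest mean, 5.60 in OIR, is at background, so its range has no fixed size. Ero1a ranged over 1.72, with its highest mean at P12 saline (11.05) and its lowest at P5 ECFC (9.33). The narrowest ranges were those of Aldoa and Aldoc (0.21 each), Ldha (0.26) and Pkm (0.28), beside median SDs within groups of 0.04, 0.10, 0.05 and 0.06. Within groups, single retinas were often highest for many members at once. The third P12 saline retina was highest of its group for 29 members (25.5% of all genes) and the second P12 ECFC retina for 32 (35.2%). These are descriptions over genes that share arrays.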

How the data were processed

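The 30 retinas were measured on mouse 3′ expression arrays from amplified, biotin-labelled total RNA. Values were deposited on a log2 scale for every probe set in every retina; the authors used Partek, per the submitters' processing notes. Its version, the background correction and the normalization: not given in the sources used. Of 22690 probe sets, 64 are controls, 20380 carry 1 gene symbol, 691 several and 1555 none; several-symbol and unnamed probe sets were left out. For each of 12393 genes the probe set with the highest mean was fitted with limma 3.58.1 in R 4.3.3, with 1 mean per group over all 30 arrays and 17 comparisons. Tests were two-sided, p-values were adjusted by Benjamini-Hochberg over all genes, and an adjusted p under 0.05 was called. The members and the lists were chosen with earlier results of these data known. Every member is named by role; array values are given for the called genes with the largest differences and for 8 members fixed for OIR. On simulated data the fit called 48%, 90% and 98% of genes raised by 0.5, 1 and 2 log2 units, and 78% of genes lowered by 1. Arrays give no counting depth; 3 arrays a group limit the precision. Alternatives were quantile normalization, median centring, the mean of probe sets, trend and robust variance, array weights, covariates for hybridisation controls and lens markers, a replicate block, only the groups compared, and leaving out each array.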

Additional observations from a re-analysis of the deposited data

Results flagged for a closer look

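The effect of CD34+ cells on Hk2 differed between the injection days by a test of the difference itself. Against saline of the same day it was 0.80 ± 0.14 at P5 and -0.23 ± 0.14 at P12, a difference of 1.03 ± 0.19 (log2 ± SE, 95% interval 0.63 to 1.42, limma adjusted p = 0.017). The 3 CD34+ retinas read 11.59, 10.90 and 11.21 at P5 and 10.92, 11.04 and 11.15 at P12. The saline retinas read 10.53, 10.26 and 10.52 at P5 and 11.22, 11.06 and 11.52 at P12, so the saline groups differ more than the CD34+ groups do. Without the first P5 CD34+ retina the difference was 0.85 (adjusted p = 0.022). The call was lost without the third P12 saline array (0.90, adjusted p = 0.064) and in the fit of only the groups compared (1.03, adjusted p = 0.14).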

How the results depend on the processing

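All values here are counts of the 40 members called, unless a gene is named. For the alternatives, here and above, the share of all genes called is not set beside these counts. They therefore show only how far the member calls depend on the setting, not whether members were called more often than other genes. Leaving out 1 array gave 4 to 13 in OIR against normoxia, 5 to 6 in P12 saline against OIR, 13 to 19 in P5 saline against OIR, 3 to 8 in P5 saline against normoxia and 16 to 20 between the saline groups. It gave 1 to 6 for P5 CD34+ against saline, 1 to 5 for P5 ECFC against CD34+, 2 to 5 for P5 both against CD34+, 0 to 4 for the CD34+ difference between days, and 0 to 0 elsewhere. Array weights gave 15 for P12 saline against OIR, 29 between the saline groups, 15, 1 and 2 for P12 ECFC, CD34+ and both, and 1, 10 and 1 for the same at P5. They gave 8 and 11 for P5 ECFC and both against CD34+, and 10, 9 and 2 for the differences between days. The hybridisation covariate gave 15 for P5 saline against normoxia, 4, 8 and 3 for P5 ECFC, CD34+ and both, 7 for P5 ECFC against CD34+, and 9, 8 and 4 for the differences between days. The lens covariate gave 3 for P5 saline against OIR, 5 between the saline groups, 5 and 7 for P5 ECFC and both against CD34+, and 2 for the CD34+ difference between days. Fits of only the groups compared gave 8 for OIR, 9 for P5 saline against OIR, and 0 for P5 saline against normoxia, P5 CD34+ against saline, both contrasts with P5 CD34+, and the CD34+ difference between days; they use fewer arrays. Quantile normalization gave 5 for P5 ECFC against CD34+, median centring 28 between the saline groups and 2 for the CD34+ difference between days, the mean of probe sets 5 and 3 for P5 ECFC against CD34+ and that difference, and trend with robust variance 10 for P5 saline against normoxia. For the other changes the cause was not tested. Over all alternatives of the 79 called gene results, the call was kept 1114 times and lost with the same sign 227 times. Ddit4 in OIR lost it in 10 of 17 alternatives, Ldha in P5 saline against OIR in 10 and Slc16a3 with P5 CD34+ cells in 9. In OIR, Stc2, Slc16a3, Bnip3 and P4ha2 kept it in all 17. The sign turned for 3 results: Pfkl in P12 saline against OIR (0.06, hybridisation covariate), and with the lens covariate Ldha in P5 saline against OIR (0.01) and Egln3 between the saline groups (0.05).

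Samples with the same replicate number did not consistently deviate together (correlations of -0.453 to 0.445, no comparison with every pair over 0.1). The numbers were therefore not used as pairs in the main fit. So few pairs in a comparison cannot exclude a shared litter or batch. With the replicate number as a block the counts were 13 in OIR, 8 in P12 saline against OIR, 20 in P5 saline against OIR, 7 in P5 saline against normoxia, 18 between the saline groups, 3 for P5 CD34+, 3 and 4 for the contrasts with P5 CD34+, and 1 for the CD34+ difference between days. Without the 2 P12 arrays of narrowest spread, chosen after seeing the data, 12 were called in OIR and 3 for P5 CD34+.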
